A study of Mus musculus with 7 samples.

Results

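The mitogen-activated protein kinase (MAPK) cascade and the dual-specificity phosphatases (DUSPs) that switch it off were examined in an ATAC-seq table of airway macrophages (AMs). In ATAC-seq a transposase cuts and tags open DNA, and the reads counted in a peak measure its accessibility. Members were all peaks annotated to a gene whose symbol begins with *Mapk*, *Map2k*, *Map3k*, *Map4k* or *Dusp* followed by a digit, or with *Mapkapk*. A kinase gene of the family, with 8 peaks, was left out. The rule used no measured value and gave 579 of 90376 peaks and 72 of the 17797 genes with a peak. The annotation assigns every peak, however distant, to a nearest transcript start, so a peak far from a start need not act on the gene it is named for.

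The libraries came from freshly sorted AMs of 6-week-old female C57BL/6 mice, 3 wild-type (WT) and 4 *Scnn1b*-Tg. *Scnn1b*-Tg mice overexpress the beta subunit of the epithelial sodium channel under the club cell secretory protein promoter, so the transgene is driven in cells of the airway epithelium. They develop muco-obstructive lung disease, and WT littermates served as controls. AMs were gated on CD45, Siglec-F and CD11c, and no stimulus was applied. Each library is a separate sample in the labels, but the table's columns carry only a genotype and a column number, so p-values measure the spread between libraries, which may be partly technical.

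A MAPK cascade is a relay of kinases. MAP4Ks act on MAP3Ks, MAP3Ks phosphorylate MAP2Ks, and MAP2Ks phosphorylate both a threonine and a tyrosine in the activation loop of ERK, JNK or p38 kinases. In macrophages the relay links Toll-like and cytokine receptors to cytokine transcription and mRNA stability. DUSPs of the MAPK phosphatase group remove both phosphates, and several are themselves induced by the kinases they silence.

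Promoters of the MAPK phosphatases were searched for 8 recognition strings of transcription factors, and 3 promoters are printed here because of strings found in them. Of the 8 promoters with a sequence, 0 held the AP-1 string TGANTCA and 0 the ETS string CCGGAAG. The string TGACGTCA, the cyclic AMP response element (CRE) bound by CREB and ATF factors, was found in 2 of 8 MAPK phosphatase promoters, those of *Dusp1* and *Dusp8*, in windows from 250 bases before to 50 after the start. It was found in 2.82% of the 71 member promoters and in 1.79% of all 32851 promoters of the same RefSeq table (GRCm38). The promoter of *Dusp5* held 2 abutting CArG boxes, the string bound by serum response factor, and 1 copy of GAGGAAGT, a string bound by the macrophage factor PU.1. At least 1 CArG box stood in 1.63% and at least 1 GAGGAAGT in 3.20% of all promoters, with both strands searched. Each sequence runs from 250 to 1 bases before the RefSeq start on the gene's strand, with these strings in capitals. The CRE of *Dusp1* begins 143 bases before the start, those of *Dusp8* begin 107 and 63 bases before, and the CArG boxes of *Dusp5* begin 82 and 72 bases before.
Dusp1 (chr17:26508473-26508722, minus strand): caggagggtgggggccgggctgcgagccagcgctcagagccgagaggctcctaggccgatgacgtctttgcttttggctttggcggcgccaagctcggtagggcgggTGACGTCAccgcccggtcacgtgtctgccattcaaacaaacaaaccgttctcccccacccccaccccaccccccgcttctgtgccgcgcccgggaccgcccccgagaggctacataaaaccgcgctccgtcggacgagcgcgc
Dusp8 (chr7:142095285-142095534, minus strand): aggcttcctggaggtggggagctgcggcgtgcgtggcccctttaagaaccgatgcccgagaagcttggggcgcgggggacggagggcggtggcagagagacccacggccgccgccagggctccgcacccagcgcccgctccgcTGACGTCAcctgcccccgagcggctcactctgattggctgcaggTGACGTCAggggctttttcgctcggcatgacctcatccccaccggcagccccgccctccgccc
Dusp5 (chr19:53528895-53529144, plus strand): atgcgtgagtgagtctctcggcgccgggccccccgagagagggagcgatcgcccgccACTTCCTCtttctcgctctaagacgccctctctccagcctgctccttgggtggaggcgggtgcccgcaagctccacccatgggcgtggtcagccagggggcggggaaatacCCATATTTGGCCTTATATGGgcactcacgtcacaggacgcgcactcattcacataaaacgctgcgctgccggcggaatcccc

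Sp1 strings (GGGCGG, either strand) were in 44 of 71 member promoters (62.0%, over 56 genes with a sequence) and in 35.7% of all promoters. Member promoters were also richer in G and C, with a median of 63.7% against 52.7%. Members have a peak by definition, whereas all promoters include those of genes without one, so these 2 promoter sets are unlike. In the central 150 bp of the peaks themselves, members and all peaks held nearly equal shares of the AP-1 string TGANTCA (7.25% and 6.98%) and of GAGGAAGT (5.53% and 5.33%). Sp1 strings were in 25.7% of member peaks within 1 kb of a start, against 28.1% of all such peaks. These shares are counts of letters and say nothing of whether a factor was bound.

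Members were covered about as deeply as other peaks. Libraries held 20971521 to 56121809 reads in peaks, a 2.68-fold range, and members took 0.728% to 0.763% of them, with a median of 88 to 234 reads per member peak and 77 to 188 per peak overall. No pair of libraries was a copy: in each of 21 pairs, at most 1.76% of read counts were identical. AM identity was checked by the peak nearest the start: 11 of 12 AM markers had one within 1 kb (*Pparg* averaged 2754 normalized counts per kb, *Itgax* 1228 and *Siglecf* 702), and 0 of 4 eosinophil markers did. Markers of monocytes (5 of 5), neutrophils (5 of 6), dendritic cells (4 of 5), lung epithelium (4 of 6) and T and B cells (2 of 7) also had such peaks, averaging 234 to 720 per kb and gene against 880 for the AM list. The AM markers ran from 156 (*Ear1*) to 2754 (*Pparg*), and *Itgam* (1121), *S100a8* (974) and *Cd3d* (760) of the other lists exceeded *Siglecf*. Levels at starts therefore did not separate the lists cleanly. Sums per list overlapped between genotypes in every list with a peak, and *Ly6g*, *Cd3e*, *Sftpc* and *Sftpb* had no peak within 1 kb. In bulk libraries, a few cells of another type and weak accessibility in all cells cannot be told apart.

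WT replicate 3 and *Scnn1b*-Tg replicate 4 stood apart from the other 5 libraries. Over the 579 member peaks a principal component analysis gave a leading component with 45.0% of the variance, which placed these 2 libraries at 7.61 and 7.59, with the others between -7.07 and 0.90. Both were higher than every other library in 45.9% of the 109 member peaks within 1 kb of a start and lower than every other in 6.42%, and in introns and intergenic sequence the shares were 9.66% and 16.2%. Over all peaks of the same classes the shares were 45.3% and 7.57% near starts and 10.7% and 21.7% elsewhere. The signal in promoter peaks was 51.1% and 50.5% of the total in these 2 libraries and 42.4% to 46.9% in the others. As each genotype has 1 such library, the split widens the spread within both genotypes. The median absolute log2 difference along it was 0.27 over members, and that between genotypes was 0.11. The pair was picked from these same data because it stood apart, so a large difference along the split was built in and was not tested.

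**Figure D1:**
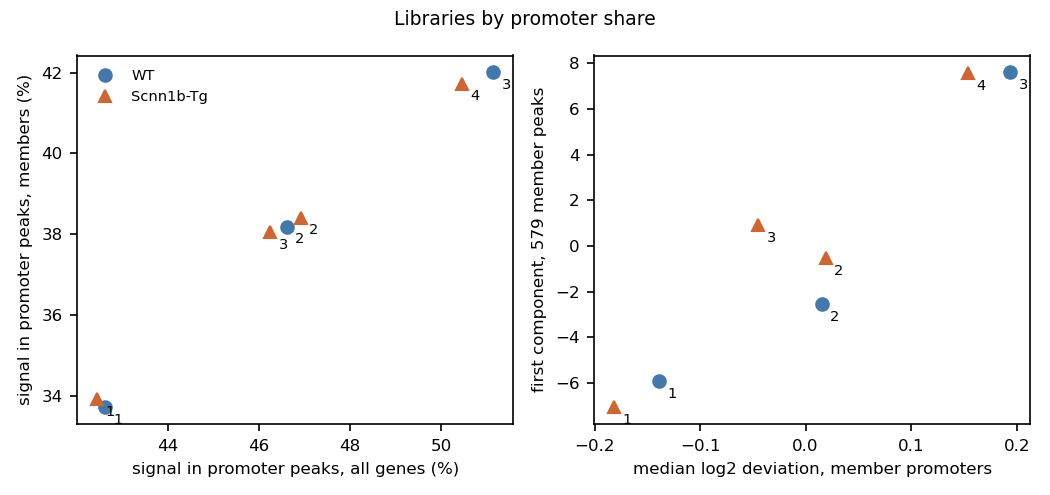
Left, share of normalized signal in peaks within 1 kb of a start for all genes (x, percent) and within the member peaks (y, percent); right, median log2 deviation of member promoter peaks from the mean of the libraries (x) and the first principal component of the 579 member peaks (y). Each point is a library numbered by its column, and WT replicate 3 and *Scnn1b*-Tg replicate 4 lie together at the upper right of both plots.

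The peaks nearest the start of the kinases and phosphatases spanned a wide range of accessibility in both genotypes. Levels are given as normalized counts per kb of peak, so that peaks of different width can be set side by side, as means over all 7 libraries. Among the MAP kinases, *Mapk6* (ERK3, an atypical kinase), *Mapk9* (JNK2) and *Mapk7* (ERK5) stood at 1353, 1312 and 1210 per kb. *Mapk14* (p38 alpha, the main p38 of macrophages), *Mapk3* (ERK1) and *Mapk8* (JNK1) followed at 936, 667 and 658. The *Mapk3* peak overlaps an annotated start that could not be checked against a RefSeq start.

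*Mapk13* (p38 delta), *Mapk11* (p38 beta), *Mapk15* (ERK7/8), *Mapk12* (p38 gamma) and *Mapk4* (ERK4) formed a separate low group at 146, 128, 110, 83.8 and 66.7 per kb. The highest library of this group stood at 173 per kb and the lowest of the 6 named above at 456, so the order between the groups was larger than the spread over libraries, whereas neighbours within each group overlapped. *Mapk10* (JNK3) was not analysed here, and the peak used for *Mapk11* lay 1.58 kb from the RefSeq start of that gene. Among the p38 genes *Mapk14* was the only one in the upper group.

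Each MAP2K acts on few MAP kinases, *Map2k1* and *Map2k2* (MEK1 and MEK2) on ERK, *Map2k7* on JNK, *Map2k4* on JNK and p38, *Map2k3* and *Map2k6* on p38, and *Map2k5* on ERK5. *Map2k1* was the most accessible at 1350 per kb, with *Map2k2* at 979, *Map2k7* at 819, *Map2k4* at 754 and *Map2k3* at 749. *Map2k5* and *Map2k6* were lower, at 392 and 274. The peak used for *Map2k3* lay 0.632 kb from the start, and the RefSeq start of the gene was 0.644 kb away.

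The MAPK phosphatases covered a similar range. *Dusp1* (MKP-1, a nuclear phosphatase of p38 and JNK that limits cytokine production) was highest at 2380 per kb, and its start peak held the largest normalized count of all member peaks, with 4943, 5157 and 6087 in WT against 4830, 5584, 5668 and 5836 in *Scnn1b*-Tg. The ERK phosphatases *Dusp5* (nuclear), *Dusp6* and *Dusp7* (cytoplasmic) followed at 1508, 1506 and 1402. *Dusp16*, which acts on JNK, stood at 1058, *Dusp2* (an inducible nuclear phosphatase) at 721 and *Dusp4* (nuclear) at 445. The peak used for *Dusp16* overlaps an annotated start but lay 0.759 kb from the RefSeq start.

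*Dusp8* and *Dusp9* were the lowest, at 190 and 178, and *Dusp10* (MKP-5, a phosphatase of JNK and p38) had no peak within 1 kb of a start. *Dusp3*, an atypical phosphatase of ERK and JNK, stood at 1857 and *Mapkapk2* (MK2, the p38 target that stabilizes cytokine mRNAs) at 1223. Of the MAP3Ks in this set, *Map3k14* (NIK, the kinase of the alternative NF-kB pathway), *Map3k8* (TPL2, which couples Toll-like receptors to MEK1 and ERK) and *Map3k5* (ASK1, activated by oxidative stress) stood at 2317, 1938 and 1744.

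**Figure D2:**
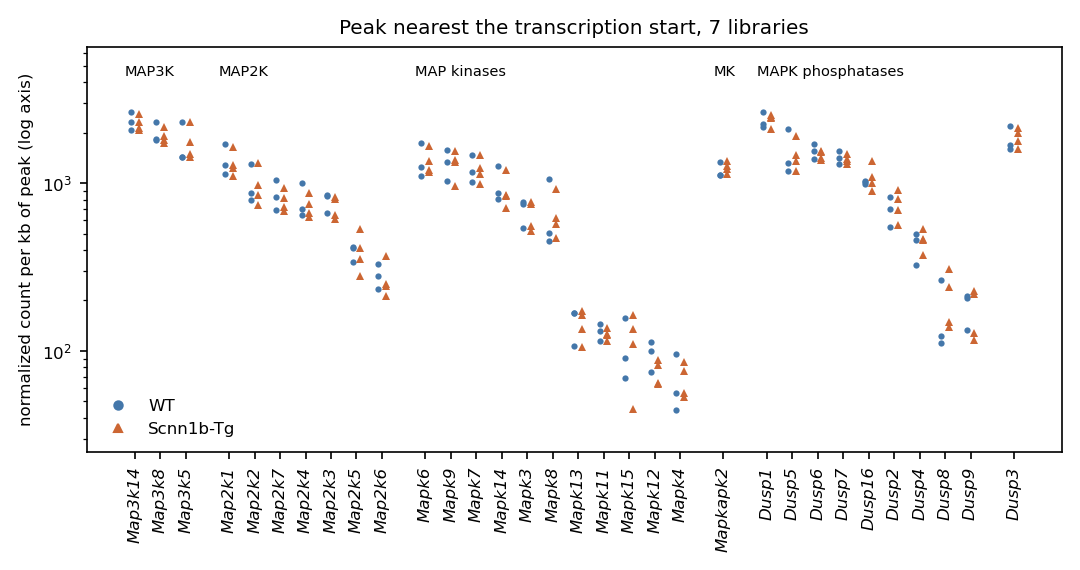
Normalized count per kb (log axis) of the peak nearest the transcription start of 32 genes in each of 3 WT (circles) and 4 *Scnn1b*-Tg (triangles) libraries, grouped by role and ordered by mean, with MK for MAPK-activated kinase and *Dusp3* at the far right. The MAP kinases shown fall into 6 genes with every library at 456 per kb or more and 5 genes with every library at 173 or less, and the genotypes overlap for every gene.

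None of these 32 start peaks separated the genotypes. The groups overlapped for all 32, 11 were higher and 21 lower in *Scnn1b*-Tg, and 0 had a limma unadjusted p under 0.05. Of all peaks within 1 kb of a start, 40.5% were higher and 0.975% had an unadjusted p under 0.05. Without overlap were 0.879% (higher) and 0.692% (lower), so the counts among the 32 were near the background. Log2 fold changes ran from -0.35 for *Mapk12* to 0.36 for *Dusp8*. *Mapk12* held 51.9, 68.8 and 78.8 normalized counts in WT against 43.8, 57.1, 44.3 and 61.4 in *Scnn1b*-Tg (log2 fold change -0.35 ± 0.25 SE, limma adjusted p = 1.00).

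*Dusp8* held 164, 179 and 386 in WT against 203, 218, 351 and 451 in *Scnn1b*-Tg (0.36 ± 0.34 SE, adjusted p = 1.00). Its highest WT and highest *Scnn1b*-Tg values came from the 2 libraries that stood apart. At *Dusp1* the change was 0.02 ± 0.11 SE and at *Map3k8* -0.05 ± 0.14 SE, so neither change exceeded its SE.

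The most accessible member regions were not all at starts. Of the 10 highest peaks per kb with 1 per gene, the first was an intergenic peak 25.1 kb upstream of *Dusp1* (chr17:26533633-26534246, mm10, the GRCm38 assembly), at 3630 normalized counts per kb. It held 2417, 2017 and 2366 counts in WT against 2427, 1946, 2285 and 2143 in *Scnn1b*-Tg. The genotypes overlapped (-0.04 ± 0.12 SE, adjusted p = 1.00).

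The central 150 bp of that peak (plus strand, GRCm38) are shown because they hold 2 matches to the AP-1 string TGANTCA (capitals). Peaks with any match made up 6.98% of all peaks at this length. The free position N is A or T in these 2 matches, so neither is TGAGTCA or TGACTCA, the forms printed for *Map3k14* below. AP-1, a dimer of JUN and FOS proteins, is a classical target of JNK and ERK signalling.
Dusp1 distal peak (chr17:26533864-26534013): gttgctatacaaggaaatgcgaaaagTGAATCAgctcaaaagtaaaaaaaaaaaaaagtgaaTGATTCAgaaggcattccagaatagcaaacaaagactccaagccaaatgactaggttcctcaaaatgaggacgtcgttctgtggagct

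*Dusp1* had 19 peaks in all, and per kb of peak it carried more signal than any other MAPK phosphatase (1309 against 928 for *Dusp5* and 739.5 for *Dusp16*). Besides the start and the 25.1 kb peak, peaks 3.97 kb and 24.0 kb upstream stood at 2541 and 2275 per kb. Of the 19 peaks 11 were higher and 8 lower in *Scnn1b*-Tg, with log2 fold changes from -0.18 to 0.21 and no peak at an unadjusted p under 0.05. Summed over the locus, WT averaged 21429 ± 3498 and *Scnn1b*-Tg 21578 ± 1963 normalized counts (SD, n = 3 and 4). Accessibility of the *Dusp1* region thus differed between genotypes by less than the spread between libraries.

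**Figure D3:**
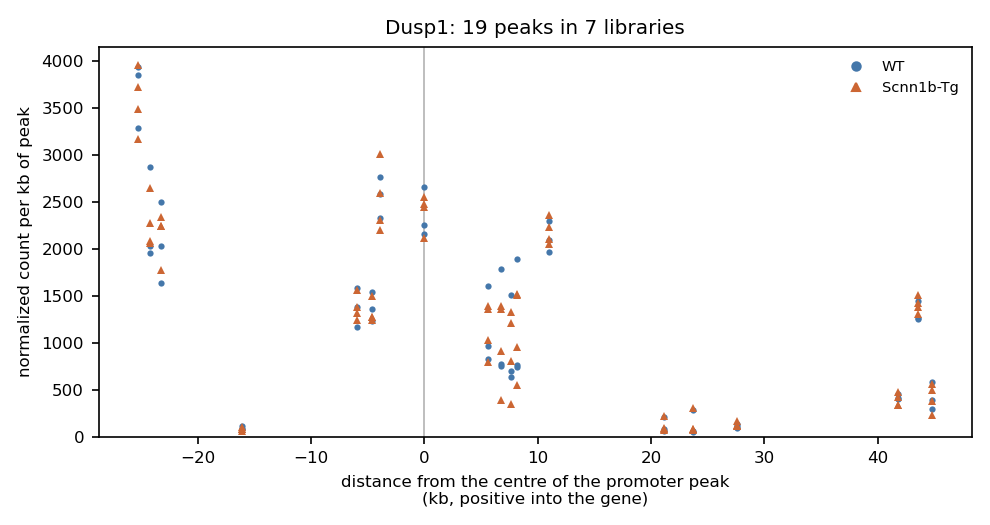
Normalized count per kb of peak (y) against distance from the centre of the *Dusp1* promoter peak (x, kb, positive into the gene) for its 19 peaks in 3 WT (circles) and 4 *Scnn1b*-Tg (triangles) libraries. The intergenic peak 25.1 kb upstream reaches 3630 per kb on average and exceeds the promoter peak at 2380, and both genotypes cover the same range at each peak.

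*Map3k5* followed with a pair of peaks in intron 1 of 29, 5.85 kb and 3.93 kb from the start (chr10:19941075-19942284 and chr10:19939155-19939879), at 2840 and 2822 per kb. Both exceeded the gene's own start peak at 1744. The former held 3517, 3089 and 3420 in WT against 3708, 3350, 3818 and 3154 in *Scnn1b*-Tg (0.07 ± 0.11 SE, adjusted p = 1.00). The groups overlapped at both.

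Peaks within 1 kb of a start made up most of the rest of the highest 10: *Map3k3* (MEKK3, which acts on MEK5 and p38 kinases) at 2396, *Map3k14* at 2317, *Map3k11* (MLK3, upstream of JNK) at 2112, *Dusp13* (an atypical DUSP, 0.869 kb from an annotated start) at 2087, *Mapkapk3* (MK3, a p38 target like MK2) at 1955 and *Map3k8* at 1938. *Dusp5* entered through a peak in intron 2, 6.25 kb from the start, at 1985. *Map3k8* had 25 peaks, and 20 of them were lower in *Scnn1b*-Tg (20.0% higher, against 47.8% of all peaks), with a median log2 fold change of -0.08. A limma unadjusted p under 0.05 was reached by 0 of them, against 2.01% of all peaks. Peaks of a gene share its locus and the same libraries, so such counts are not independent. Summed counts of *Map3k8* were 13972 ± 1081 in WT and 13144 ± 1420 in *Scnn1b*-Tg (SD), with WT replicate 1 the highest library at 15216.

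At *Map3k14* a short peak 1.68 kb upstream of the start reached 1844 per kb with 334 bp of width. It is shown because its centre holds 2 AP-1 strings and 1 PU.1 string (GAGGAAGT, here on the minus strand), all in capitals, and this string stood in 5.33% of all peaks at this length. It held 784, 613 and 482 counts in WT against 797, 611, 459 and 565 in *Scnn1b*-Tg, with the groups overlapping (-0.04, adjusted p = 1.00).
Map3k14 upstream peak (chr11:103269520-103269669, plus strand): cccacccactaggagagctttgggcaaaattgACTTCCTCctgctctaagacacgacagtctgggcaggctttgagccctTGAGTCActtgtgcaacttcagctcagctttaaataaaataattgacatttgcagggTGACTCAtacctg

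Peaks per gene varied from 1 to 38, with a median of 5 against 3 for all genes. *Dusp6* had the most (38), then *Map3k5* (33), *Map4k4* and *Map3k8* (25 each) and *Map3k20* (ZAK, a sensor of stalled ribosomes, 24). Of the 72 genes 65 had a peak within 1 kb of a start. By position, 37.0% of member peaks were in introns, 29.2% in distal intergenic sequence and 18.8% within 1 kb of a start, against 33.3%, 26.8% and 21.9% of all peaks.

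Genotypes were then compared across all 579 member peaks. No member peak passed an adjusted p of 0.05 (0 of 579, limma with Benjamini-Hochberg adjustment over 90376 peaks), and 0.00111% of all peaks passed. An unadjusted p under 0.05 was reached by 10 members (1.73%) against 2.01% of all peaks. Of these, 6 were higher in *Scnn1b*-Tg (1.04%) against a background of 1.49%, and 4 were lower (0.691%) against 0.517%. Without *Scnn1b*-Tg replicate 3 the count was 3 against 1.34% of all peaks, and without both libraries that stood apart it was 13 (2.25%) against 2.97%, with 0 past the adjusted threshold in either fit.

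Peaks whose genotypes did not overlap were about as frequent among members as elsewhere. The lowest *Scnn1b*-Tg library exceeded the highest WT library in 9 members (1.55%) against 1.92% of all peaks. The reverse held in 8 members (1.38%) against 1.31%. With edgeR and DESeq2 on the recovered reads 0 members passed the adjusted threshold, against 0 and 47 of all peaks. An unadjusted p under 0.05 was reached by 8 members with each (1.38%), against 1.94% of all peaks with edgeR and 1.88% with DESeq2.

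The members leaned slightly lower as a set. In *Scnn1b*-Tg 42.1% of members were higher (244 of 579) against 47.8% of all peaks, and the median log2 fold change was -0.03 against -0.01. Without WT replicate 1 the share was 48.5%, equal to the 48.5% of all peaks, so the lean rests on that library. Introns, intergenic peaks and starts had medians of -0.02, -0.02 and -0.04, against 0.01, -0.01 and -0.02 over all peaks of these classes. The 43 peaks 1 to 3 kb from a start stood at -0.08 and the 44 exon, untranslated or downstream peaks at -0.06, both against -0.01.

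By role, MAP3K peaks had the lowest median of the kinase tiers (-0.07 over 191 peaks of 18 genes, 34.0% higher). Roles were set by gene symbol, so these genes include one named only for likeness to a MAP3K (12 peaks, 16.7% higher, median -0.11). MAPK-activated kinases stood at -0.05 (26 peaks, 30.8% higher), MAP kinases at -0.01 (70 peaks, 44.3%), MAP2Ks at -0.01 (57 peaks, 47.4%) and MAPK phosphatases at 0.00 (124 peaks, 62 higher). MAP4Ks stood at 0.03 (53 peaks, 54.7%), and atypical DUSPs at -0.03 (42 peaks, 35.7%). Of the MAP4K peaks 17 belong to *Map4k3*, with a median of 0.30 and 76.5% higher. Within each role the changes of single peaks spread well beyond these medians, and peaks of a gene share its locus, so no test was made on a role.

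Grouped by branch, with *Map2k4* counted under JNK although it also acts on p38, the 25 JNK peaks (*Mapk8*, *Mapk9*, *Map2k4*, *Map2k7*) had a median of 0.00 and the 48 p38 peaks (*Mapk11* to *Mapk14*, *Map2k3*, *Map2k6*) of -0.07. An unadjusted p under 0.05 was reached by 1 of the 48 p38 peaks (2.08%) and 0 of the 25 JNK peaks, against 2.01% of all peaks.

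**Figure D4:**
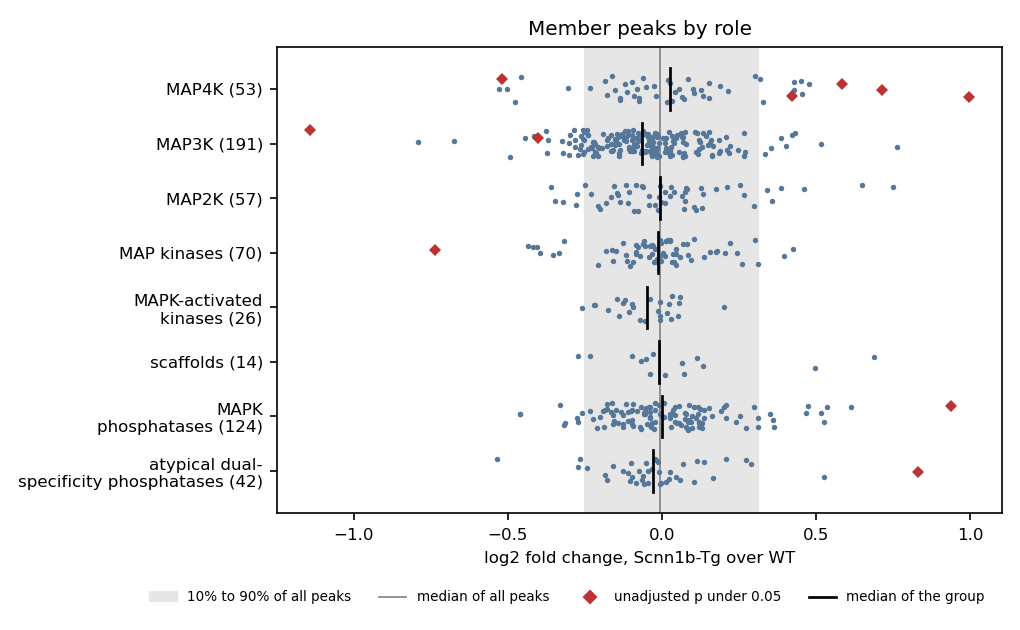
Log2 fold change of *Scnn1b*-Tg over WT (x) for member peaks in 8 roles, 1 point per peak with vertical jitter and the number of peaks in brackets, the median of each role as a black bar and the 10% to 90% range of all 90376 peaks in grey. Red diamonds mark the 10 peaks with an unadjusted p under 0.05, of which 4 are MAP4K peaks higher in *Scnn1b*-Tg, all of the single gene *Map4k3*.

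Among the MAP4Ks, *Map4k3* (GLK, a kinase that activates JNK signalling and senses amino acids) held the member peak of smallest p. This peak lay in intron 1 of 34, 40.4 kb from the start, with 237, 215 and 220 normalized counts in WT against 454, 311, 474 and 271 in *Scnn1b*-Tg. Every *Scnn1b*-Tg library was above every WT library (1.69-fold, log2 fold change 0.71 ± 0.21 SE, unadjusted p = 0.00644). After adjustment over all peaks it did not pass (limma adjusted p = 1.00).

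The *Scnn1b*-Tg libraries themselves split at this peak into a higher pair, replicates 1 and 3, and a lower pair, replicates 2 and 4, which still exceeded the WT range.

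Further *Map4k3* peaks had genotypes that did not overlap, all higher in *Scnn1b*-Tg. In intron 1, a peak 21.1 kb from the start held 14.5, 8.30 and 25.1 in WT against 29.2, 30.8, 34.8 and 25.8 in *Scnn1b*-Tg (1.00 ± 0.38 SE, unadjusted p = 0.0235, adjusted p = 1.00). Here WT replicate 3 and *Scnn1b*-Tg replicate 4 nearly touched, and without WT replicate 2 the change was 0.63 (limma unadjusted p = 0.117). Another in intron 1, 10.0 kb from the start, held 48.5, 58.1 and 53.7 in WT against 64.5, 74.3, 96.5 and 89.7 in *Scnn1b*-Tg (0.58 ± 0.22 SE, unadjusted p = 0.0241, adjusted p = 1.00). An intergenic peak 39.4 kb upstream held 136, 133 and 142 in WT against 186, 191, 199 and 160 in *Scnn1b*-Tg (0.42 ± 0.17 SE, unadjusted p = 0.0308, adjusted p = 1.00). These further peaks were singled out after their values were seen.

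In all, 4 of the 17 *Map4k3* peaks (23.5%) had an unadjusted p under 0.05, against 2.01% of all peaks. Higher in *Scnn1b*-Tg were 13 of 17 (76.5%), against 47.8% of all peaks, and the median log2 fold change was 0.30 against -0.01. The gene was singled out for the smallest p, and its peaks share a locus and the same libraries, so these counts are not independent of that p. The start peak held 963, 968 and 1121 in WT against 1005, 1128, 1221 and 1293 in *Scnn1b*-Tg, with the groups overlapping (0.19, adjusted p = 1.00). The lowest of the 17 was an intergenic peak 71.7 kb upstream at -0.48, where *Scnn1b*-Tg replicate 1 held 7.30 counts.

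**Figure D5:**
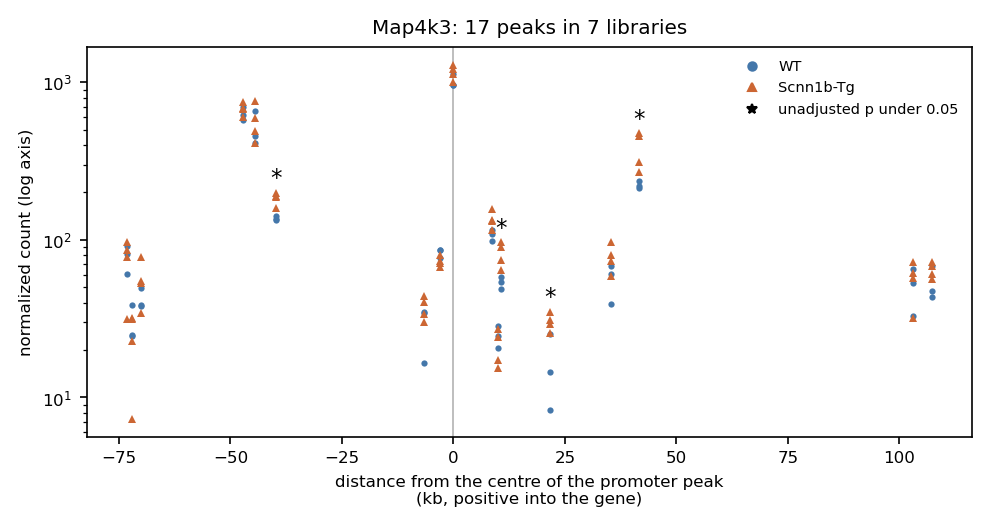
Normalized count (y, log axis) of the 17 *Map4k3* peaks against distance from the centre of its promoter peak (x, kb, positive into the gene) in 3 WT (circles) and 4 *Scnn1b*-Tg (triangles) libraries, with stars on the 4 peaks at an unadjusted p under 0.05. At the starred peaks all triangles lie above all circles, as at the intron 1 peak with 215 to 237 in WT and 271 to 474 in *Scnn1b*-Tg, while the promoter peak overlaps.

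The centre of the peak 10.0 kb from the start is shown (plus strand, GRCm38) because it held the NF-kB string GGGANTTCC (capitals), present in 0.867% of all peaks at this length.
Map4k3 peak 10.0 kb from the start (chr17:80717662-80717811): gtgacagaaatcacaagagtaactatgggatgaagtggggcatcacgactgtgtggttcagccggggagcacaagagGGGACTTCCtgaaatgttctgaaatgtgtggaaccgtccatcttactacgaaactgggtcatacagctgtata

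Counts were also summed per gene. With all peaks of a gene summed, 0 of 72 member genes passed the adjusted threshold (limma over 17797 genes, background 0.0%), and 1 gene, *Map4k3*, had an unadjusted p under 0.05 (1.39%) against 1.15% of all genes. Its sums averaged 3140 ± 204 in WT and 3695 ± 255 in *Scnn1b*-Tg (SD, log2 fold change 0.23, unadjusted p = 0.0221, adjusted p = 1.00). Its sums did not overlap between genotypes, but the share of all genes without overlap was not counted, so this does not set the gene apart. Other members ran from -0.18 (*Map3k19*) to 0.28 (*Map4k5*), and 21 of 72 were higher in *Scnn1b*-Tg. The median was -0.02 over member genes and -0.01 over all genes.

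The other MAP4Ks moved in various directions. *Map4k1* (HPK1, a brake on lymphocyte receptor signalling) had a peak with 165, 237 and 204 in WT against 136, 169, 111 and 147 in *Scnn1b*-Tg (-0.52 ± 0.21 SE, unadjusted p = 0.0280, adjusted p = 1.00). The groups overlapped by a single library. The annotation places this peak at a transcript start, but it lay 17.8 kb from the nearest RefSeq start of the gene.

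*Map4k4* (HGK, upstream of JNK) had an intron 2 peak with 172, 133 and 134 in WT against 134, 114, 87.0 and 92.7 in *Scnn1b*-Tg (-0.46 ± 0.21 SE, adjusted p = 1.00), overlapping by a single library. A peak 1.34 kb from an annotated start held 66.3, 68.8 and 66.2 in WT against 54.8, 47.1, 33.2 and 57.1 in *Scnn1b*-Tg without overlap (-0.50 ± 0.25 SE, adjusted p = 1.00). *Map4k5*, a related kinase, had a peak 1.87 kb from an annotated start, but 20.7 kb from the gene's nearest RefSeq start, with 144, 113 and 138 in WT against 181, 169, 236 and 142 in *Scnn1b*-Tg, overlapping by 1 library (0.45 ± 0.21 SE, adjusted p = 1.00).

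Among the MAP3Ks only *Map3k5* had peaks at an unadjusted p under 0.05, both lower. An intron 2 peak 67.3 kb from an annotated start and 83.9 kb from the RefSeq start held 39.1, 26.1 and 52.5 in WT against 25.6, 13.6, 6.33 and 32.5 in *Scnn1b*-Tg (-1.14 ± 0.50 SE, unadjusted p = 0.0419, adjusted p = 1.00), with the groups overlapping. Without *Scnn1b*-Tg replicate 3 the change was -0.72 (limma unadjusted p = 0.104). An intron 7 peak held 120, 126 and 143 in WT against 103, 91.6, 103 and 92.1 in *Scnn1b*-Tg without overlap (-0.40 ± 0.18 SE, unadjusted p = 0.0492, adjusted p = 1.00). Of the 33 *Map3k5* peaks, which share a locus and are not independent, 26 were lower (21.2% higher, against 47.8% of all peaks). Their median was -0.12, whereas the summed counts were close (14740 ± 1339 in WT, 14427 ± 798 in *Scnn1b*-Tg, SD).

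Among the MAP kinases and MAP2Ks the lowest change was at a *Mapk11* peak (chr15:89148387-89148858), which held 43.4, 51.0 and 57.1 in WT against 25.6, 25.4, 30.0 and 39.9 in *Scnn1b*-Tg. Every *Scnn1b*-Tg library was below every WT library (-0.74 ± 0.27 SE, unadjusted p = 0.0188, adjusted p = 1.00). The peak lay 0.636 kb from an annotated start and 0.748 kb from the RefSeq start. The neighbouring peak, which overlaps an annotated start but lay 1.58 kb from the RefSeq start, held 127 ± 14.6 in WT and 123 ± 9.05 in *Scnn1b*-Tg (SD, n = 3 and 4). Its centre is shown as the only MAP kinase region past an unadjusted p of 0.05, and it held none of the 8 strings (plus strand, GRCm38).
Mapk11 peak (chr15:89148547-89148696): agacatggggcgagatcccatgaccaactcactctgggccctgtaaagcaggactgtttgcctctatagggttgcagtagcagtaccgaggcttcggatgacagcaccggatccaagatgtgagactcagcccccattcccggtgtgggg

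An intron 3 peak of *Mapk14* held 150, 114 and 118 in WT against 107, 105, 66.4 and 100.1 in *Scnn1b*-Tg without overlap (-0.43 ± 0.23 SE, adjusted p = 1.00), and the change was -0.27 without *Scnn1b*-Tg replicate 3. In intron 8 of *Map2k5* the direction was the opposite, with 32.3, 34.4 and 26.3 in WT against 51.1, 36.3, 39.5 and 36.8 in *Scnn1b*-Tg (0.39 ± 0.26 SE, adjusted p = 1.00), again without overlap.

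Among the phosphatases, *Dusp10* had the peaks with the largest rises. A small intergenic peak 243 kb from its start held 13.6, 7.12 and 6.85 in WT against 23.1, 13.6, 17.4 and 17.8 in *Scnn1b*-Tg (0.94 ± 0.42 SE, unadjusted p = 0.0483, adjusted p = 1.00), the groups touching at 13.6. A peak 135 kb away held 30.6, 23.7 and 30.8 in WT against 32.9, 42.6, 61.7 and 41.8 in *Scnn1b*-Tg without overlap (0.61 ± 0.29 SE, adjusted p = 1.00). Of the 14 *Dusp10* peaks, which share a locus and are not independent, 11 were higher (78.6%, against 47.8% of all peaks). Their median was 0.28, and the sums overlapped at 1735 ± 326 in WT and 2008 ± 235 in *Scnn1b*-Tg (SD).

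*Dusp5* had an intergenic peak 30.4 kb upstream with 30.6, 46.2 and 28.5 in WT against 54.8, 53.5, 47.4 and 44.2 in *Scnn1b*-Tg, overlapping by a single library (0.52 ± 0.26 SE, adjusted p = 1.00). Of the 38 *Dusp6* peaks 27 were lower (28.9% higher, against 47.8% of all peaks), with a median of -0.09. A limma unadjusted p under 0.05 was reached by 0 of them, against 2.01% of all peaks. These peaks share a locus and the same libraries, so the counts are not independent. Summed counts of *Dusp6* were 11628 ± 725 in WT and 10999 ± 661 in *Scnn1b*-Tg (SD), with WT replicate 1 the highest library at 12360.

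Among the atypical DUSPs, *Dusp27* (named a phosphatase by sequence) had an intron 5 peak with 28.9, 27.3 and 12.6 in WT against 51.1, 49.0, 31.6 and 29.5 in *Scnn1b*-Tg without overlap (0.83 ± 0.36 SE, unadjusted p = 0.0404, adjusted p = 1.00). The lowest WT and the lowest *Scnn1b*-Tg value both came from the libraries that stood apart, and without WT replicate 3 the change was 0.46 (limma unadjusted p = 0.201). *Dusp23* had an intergenic peak 9.06 kb away with 36.6, 42.7 and 45.7 in WT against 28.0, 26.3, 25.3 and 34.4 in *Scnn1b*-Tg, also without overlap (-0.54 ± 0.26 SE, adjusted p = 1.00).

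Member peaks picked for their large difference along the split between libraries moved further along it than between genotypes. An intergenic *Dusp1* peak 22.4 kb downstream of the start held 188 in WT replicate 3 and 203 in *Scnn1b*-Tg replicate 4, against 36.8 to 57.2 in the other 5 libraries. A *Mapkapk2* peak held 59.4 and 52.8 in the same 2 libraries against 10.2 to 20.6. At the start of *Mapk8* the pair held 1359 and 1181 against 583 to 791.

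Other peaks moved the opposite way in that pair, as an intergenic *Map2k6* peak with 113 and 99.5 against 189 to 303. Genotype changes at the *Mapk8* start (0.00) and at this *Map2k6* peak (-0.09) were small beside that split.

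The neighbours of the cascade that the symbol rule misses were taken from a fixed list of RAS and RAF proteins, adaptors, inhibitors and nuclear targets. Of 51 genes listed 49 had 444 peaks, of which 0 passed the adjusted threshold, and 50.5% were higher in *Scnn1b*-Tg (median log2 fold change 0.00). At an unadjusted p under 0.05 there were 5 (1.13%), against 2.01% of all peaks. All 5 were higher, a direction in which 1.49% of all peaks reached this p. They were a pair annotated to *Ksr2* (a scaffold of RAF and MEK) and 1 each to *Jun* (an AP-1 subunit phosphorylated by JNK), *Rps6ka2* (RSK3, an ERK target) and *Gadd45b* (a stress protein that binds MAP3K4). At the *Jun* peak, 45.4 kb upstream, WT averaged 153 ± 24.2 and *Scnn1b*-Tg 219 ± 22.5 (SD, 0.52 ± 0.18 SE, adjusted p = 1.00).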

How the data were processed

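Accessibility was taken from 1 table of consensus ATAC-seq peaks of freshly sorted AMs (3 WT and 4 *Scnn1b*-Tg columns). The authors aligned reads to mm10 with the ENCODE pipeline, merged peaks found in at least 2 samples with DiffBind, counted reads per peak, scaled them and annotated peaks with ChIPseeker. The deposited signal is therefore a TMM-scaled normalized count per peak. Every value was a whole multiple of its column's smallest value (100.0% of values, tolerance 1e-06), which gave back whole reads. The table's log2 means, fold change, p-value and FDR columns, the authors' own comparison, were not used.

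Genotypes were compared with limma 3.58.1 (R 4.3.3, trended robust variances) on log2(normalized count + 1), genotype as the only term, Benjamini-Hochberg adjustment over all 90376 peaks, or over 17797 genes after summing peaks by symbol, and no filter on low values. These fold changes understate those of low peaks. Depth is in the results and limits the precision of narrow, low peaks. On simulated data a log2 fold change of 2 was recovered in 166 of 200 changed peaks and one of 1 in 42 of 200.

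Members and lists were chosen with earlier results of these data known. Named were the start peak (within 1 kb) of every MAP kinase, MAP2K and MAPK phosphatase and of *Map3k8*, *Map3k14*, *Map3k5*, *Mapkapk2* and *Dusp3*. Also named were the 10 smallest p values, the 5 largest changes each way without overlap (mean at least 20), the 10 highest peaks per kb and 5 highest beyond 3 kb, and the 5 genes with most peaks. Some peaks named by this rule are not reported here. Strings were searched on both strands of GRCm38. Alternatives were pseudocounts 0.5 and 5, a floor of 20 on the mean, quantile and median scaling, limma with no variance trend, edgeR 4.0.16, DESeq2 1.42.0, a fit with 1 surrogate variable from sva 3.50.0, omission of single libraries, and omission of both libraries that stood apart. Intervals and p-values cover these libraries only.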

Additional observations from a re-analysis of the deposited data

Results flagged for a closer look

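At the start of *Map3k3*, *Scnn1b*-Tg replicate 3 held 4945 normalized counts, far above the 3905 to 4021 of the other *Scnn1b*-Tg libraries. It was the only such gap among 62 described peaks (1.61%), where chance alone gives about 5%.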

How the results depend on the processing

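No paired analysis was possible because the columns carry numbers that no label ties to a sample, although the labels share numbers and batches between genotypes. The count of member peaks past the adjusted threshold was 0, and that of member genes 0, under every alternative run. Over all peaks these fits called 0 or 1, except 47 with DESeq2 and 72 with 1 surrogate variable, and over all genes at most 1. With so few calls anywhere, a count of 0 among members says little. The count at an unadjusted p under 0.05 was 10 in the report, 17 without a variance trend (2.89% of all peaks) and 27 with 1 surrogate variable (4.94% of all peaks), and ran from 3 (without *Scnn1b*-Tg replicate 3) to 12 with 1 library left out. The share of members higher ran from 39.7% to 48.5% (without WT replicate 1) with 1 library left out. All 19 described differences kept their direction and stayed short of the adjusted threshold in all 320 settings run. They had been picked for a small p or for groups without overlap, so keeping the direction was largely built in and adds no support. The summed *Map4k3* change ran from 0.19 to 0.29 with 1 library left out, with unadjusted p up to 0.0936 (without WT replicate 2). It was 0.16 (limma unadjusted p = 0.243) over the peaks within 3 kb of the start, and its unadjusted p was 0.0507 without a variance trend. The *Map4k3* peak of smallest p ran from 0.59 to 0.86 with 1 library left out, with unadjusted p up to 0.0255.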
